A study of Homo sapiens with 10 samples.

Results

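The inositol polyphosphate 5-phosphatases were followed in KYSE-410, an established line of human oesophageal squamous cell carcinoma, after editing of INPPL1, the gene of SHIP2. The members were the 10 rows of the expression table, of 58302 in all, whose gene name is INPPL1, INPP5D, INPP5A, INPP5B, INPP5E, INPP5J, INPP5K, OCRL, SYNJ1 or SYNJ2. The other 9 are called the relatives of INPPL1 here. The 10 RNA libraries formed 5 groups of 2: 1 control colony, given the vector with no guide RNA (genotype WT), and the SHIP2 KO clones D4, G4, G10 and H3. The clones were made with CRISPR/Cas9n plasmids and a GFP reporter, sorted by fluorescence, grown up and screened by Western blot for SHIP2. Each clone is 1 clone and the control is 1 colony, so a difference between them can also be one that existed between single cells of the line. The labels do not say that the 2 libraries of a group came from separate cultures, so p values measure only the spread between these libraries, which may be technical.

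Enzymes of this family remove the phosphate at position 5 of the inositol ring. The substrates include the membrane lipids PI(4,5)P2 and PI(3,4,5)P3, the second being the product of PI3K, and soluble inositol phosphates such as IP3. SHIP2 turns PI(3,4,5)P3 into PI(3,4)P2, a lipid that takes part in endocytosis and in AKT signalling. The question addressed was whether transcripts of the relatives rise where INPPL1 is edited.

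Estimated depth was 9653835 to 14253437 gene-assigned reads a library, and libraries of the same group correlated at r = 0.9911 to 0.9962 across the tested genes, which are not independent replicates. The median absolute log2 difference between the libraries of a group was 0.13 in G10 and 0.08 to 0.11 in the other groups. Among markers fixed for squamous epithelium, TP63 stood at 83.7 to 221.8 CPM (reads of a gene scaled to a fixed library total), CDH1 at 444.4 to 726.7 CPM and EPCAM at 137.2 to 204.8 CPM over the 10 libraries. The basal keratin KRT5 was at 6.35 to 57.4 CPM, and its partner KRT14 was nearly absent, at 0.15 to 1.4 CPM. The sum of the 6 squamous markers was 1908.2 to 1975.7 CPM in the control and 819.1 to 1114.0 CPM in the clones. KRT6A made most of that difference, with a control mean of 909.0 CPM and 4.75 to 237.5 CPM in edited libraries. The sum was lower in each of the 4 clones, and its part in the results was not tested.

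Promoter sequences are shown for the edited gene and for SYNJ2 and OCRL, the relatives with a listed promoter whose change passed the test in at least 3 clones, a choice made after their values were seen. Each runs from 250 bases before to 50 bases after the first start that RefSeq lists for the gene on GRCh38.p14, 5′ to 3′ on the plus strand. Capitals mark the GC box GGGCGG or its reverse complement CCGCCC.
INPPL1, chr11:72223313-72223612: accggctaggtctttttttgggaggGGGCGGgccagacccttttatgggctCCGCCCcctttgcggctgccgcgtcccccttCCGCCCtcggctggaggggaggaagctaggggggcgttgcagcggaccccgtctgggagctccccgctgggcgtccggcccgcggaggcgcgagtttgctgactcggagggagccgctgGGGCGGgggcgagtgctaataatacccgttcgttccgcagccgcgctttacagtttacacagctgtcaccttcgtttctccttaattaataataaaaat
SYNJ2, chr6:158016843-158017142: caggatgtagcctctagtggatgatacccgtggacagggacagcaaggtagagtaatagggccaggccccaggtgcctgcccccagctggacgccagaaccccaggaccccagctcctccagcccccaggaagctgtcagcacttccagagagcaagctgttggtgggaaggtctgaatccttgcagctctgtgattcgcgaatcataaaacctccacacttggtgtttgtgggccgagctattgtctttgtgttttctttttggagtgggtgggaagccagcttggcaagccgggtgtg
OCRL, chrX:129540009-129540308: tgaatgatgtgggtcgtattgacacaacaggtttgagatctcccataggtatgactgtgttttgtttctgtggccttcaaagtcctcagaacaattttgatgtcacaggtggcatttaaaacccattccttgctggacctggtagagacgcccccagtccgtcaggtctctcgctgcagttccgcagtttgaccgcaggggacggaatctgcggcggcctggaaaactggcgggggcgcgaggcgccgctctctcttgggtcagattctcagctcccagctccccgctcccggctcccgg
The INPPL1 stretch holds 4 GC boxes, 28 CpG dinucleotides and 63.3% G or C. Those of SYNJ2 and OCRL hold 0 GC boxes each, with 6 and 17 CpG dinucleotides. A GC box on either strand is found in 44.95% of the 35116 listed promoters, so its presence or absence is common. The SYNJ2 start listed lies inside the gene as GENCODE release 29 draws it (157981887 to 158099176 of chromosome 6). So does that of OCRL (129539849 to 129592561 of the X chromosome). The INPPL1 stretch ends before the start of its gene in that release, at 72223701. A match is a string of letters, and binding was not measured.

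INPPL1 (ENSG00000165458, chromosome 11, 72223701 to 72239105 on hg38, plus strand) was lower in all 8 libraries of edited clones than in both control libraries. The control libraries stood at 139.97 and 149.79 CPM. D4 stood at 83.61 and 93.28 CPM, H3 at 88.09 and 85.33 CPM, and G4 at 65.37 and 64.37 CPM. Both G10 libraries were at 9.493 CPM, which rests on 260 estimated reads in all against 3528 in the control. The clones therefore fell into 3 levels, with D4 and H3 overlapping, G4 lower and G10 far below. Of the 17664 genes tested, 11.5% likewise had all 8 edited libraries below both control libraries. INPPL1 passed as lower in each of the 4 clones, as 3.9% of genes did. The mean of the 4 clones was lower by a log2 fold change of −1.60 ± 0.06 (SE, n = 2 libraries a group, adjusted p = 3.07e-11 by limma). Without G10 that mean was −0.86, and with clone means in place of libraries it had the same size and an adjusted p of 0.98. The study screened the clones by protein, and no measure of protein was analysed here.

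The fall of INPPL1 was larger than the median change of its neighbourhood in each clone, by the least in H3. Its 50 nearest genes averaging 5 CPM or more span 69048897 to 75422280 of chromosome 11. Their median log2 change was −0.48 in H3 and −0.09 to −0.15 in the other clones. INPPL1 itself changed by −0.73 in H3, inside the quartiles of its neighbours (−0.80 to −0.29). With these medians subtracted, INPPL1 stood at −0.25 ± 0.08 in H3 (adjusted p = 0.0177, limma), −3.65 in G10, −1.06 in G4 and −0.57 in D4. Here and below, the medians were subtracted as fixed values. Errors and p values after subtraction therefore leave out the spread among the neighbours. The only annotated gene that overlaps INPPL1, PHOX2A on the other strand, shares 29 bases with it and reached at most 0.15 CPM.

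**Figure D1:**
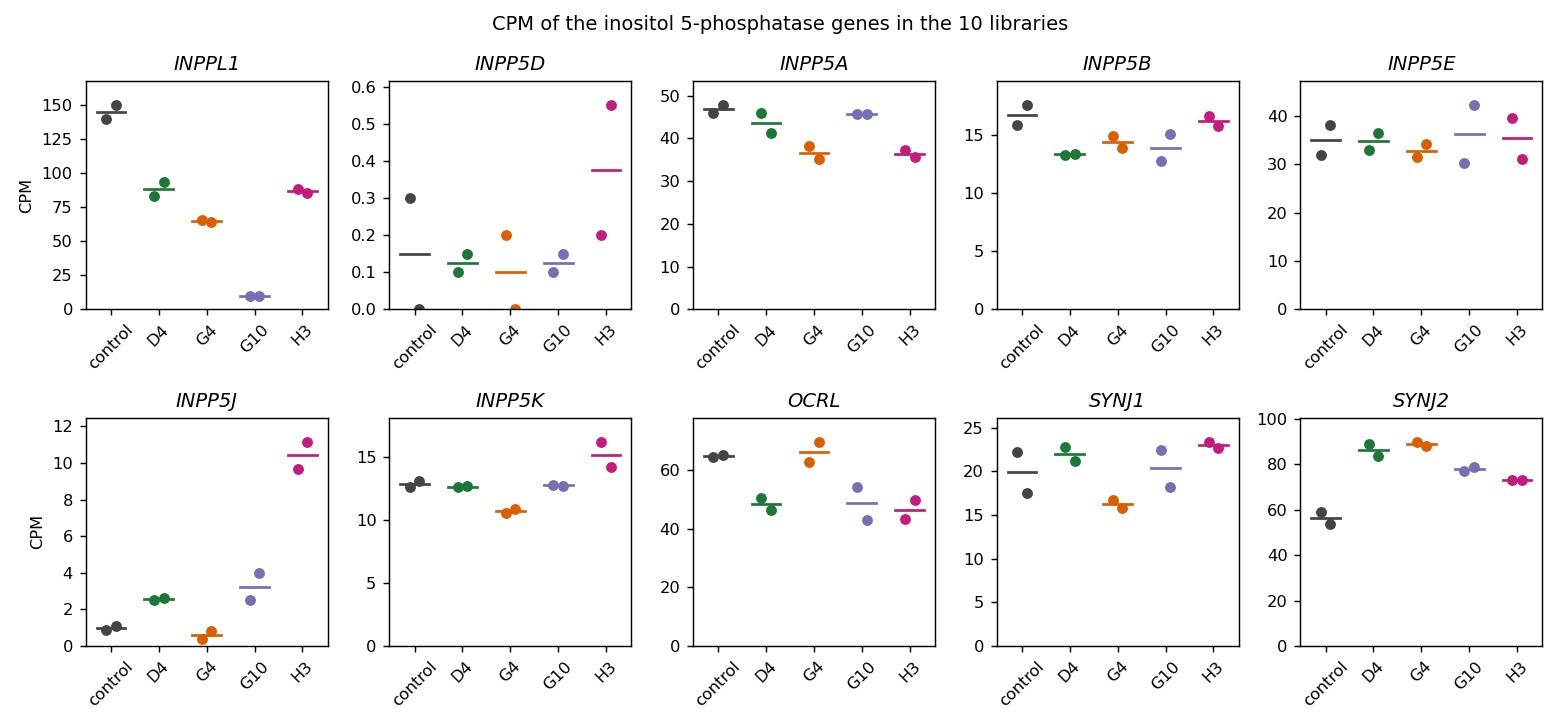
CPM of each of the 10 genes (y axis, from 0, own scale per panel) by group (x axis), with 1 point for each library and a line at the mean of the 2. INPPL1 is lower in all 8 libraries of edited clones, SYNJ2 is higher in all 8, and INPP5J is highest in H3.

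Levels can be compared between genes only per length, and for this CPM was divided by the kilobases of annotated exon. On that scale INPPL1 led the family in the control colony, at 22.2 ± 1.07 CPM per kb (SD, n = 2). INPP5A followed at 12.6 ± 0.33 and OCRL at 10.7 ± 0.12 CPM per kb. INPP5E stood at 5.41 ± 0.68 and SYNJ2 at 4.51 ± 0.31 CPM per kb. SYNJ1, at 2.46 ± 0.41, and INPP5K, at 2.41 ± 0.07 CPM per kb, did not differ beyond their spread. INPP5B (1.87 ± 0.13), INPP5J (0.207 ± 0.029) and INPP5D (0.0173 ± 0.024 CPM per kb) closed the order. INPPL1 remained the first of the 10 in D4 and H3, was the second in G4 behind OCRL, and was number 8 in G10. In G4 INPPL1 (9.95 ± 0.11) and INPP5A (9.90 ± 0.56 CPM per kb) did not differ beyond their spread. The same held in G10 for INPPL1 (1.46) and INPP5B (1.56 ± 0.18 CPM per kb).

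The summed length-scaled level of the 9 relatives changed little while that of INPPL1 fell. In the control libraries the relatives summed to 39.8 and 40.7 CPM per kb. In the clones they summed to 40.2 and 38.2 (D4), 38.5 and 39.0 (G4), 39.3 and 39.4 (G10), and 39.0 and 38.1 CPM per kb (H3), with 7 of the 8 values below both control libraries. The group means were 95.8% to 97.8% of the control. The difference of INPPL1 from the control was −20.8 CPM per kb in G10, −12.3 in G4, −8.92 in H3 and −8.66 in D4. The relatives' differences were −1.07, −1.45, −0.89 and −1.71 CPM per kb in the order D4, G4, G10, H3. The share of INPPL1 in the family's summed level went from 35.6% ± 0.75 in the control to 25.7% ± 2.16 in D4, 20.4% ± 0.33 in G4, 3.57% ± 0.01 in G10 and 25.7% ± 0.12 in H3 (SD, n = 2 each). Summed without regard to length, the relatives were at 253.3 and 254.3 CPM in the control, and the clone means were 101.1% to 105.1% of that, so the sign of the small difference depends on the length scaling. These sums were not tested.

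**Figure D2:**
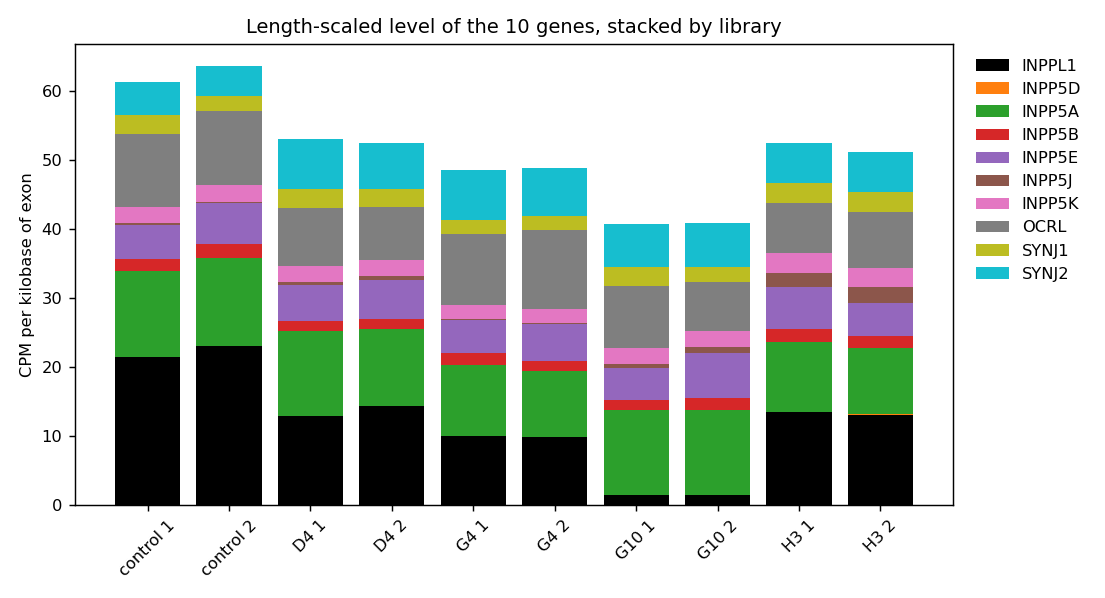
Stacked bars of CPM per kilobase of annotated exon (y axis, from 0) for the 10 genes in each of the 10 libraries (x axis), with INPPL1 in black at the base. The black segment shrinks from 35.6% of the bar in the control to 3.57% in G10, while the remainder stays between 38.1 and 40.7 CPM per kb.

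Among the 8 relatives that passed the filter (1 CPM or more, 2 libraries or more), 2 were higher and 2 were lower in the mean of the 4 clones (adjusted p under 0.05, limma on log2(CPM + 1)). Over all genes tested 18.2% were higher and 22% were lower, so a count of 2 of 8 in each direction lies close to the background. In D4, 2 were higher and 2 lower, against 17.5% and 23.8% of all genes. G4 had 1 higher and 1 lower (10.9% and 16.4%), G10 had 2 and 1 (17.8% and 19.1%), and H3 had 2 and 2 (23.9% and 22.1%). The median log2 change of the 8 was −0.01 over the clones, beside −0.02 for all genes tested. By clone it was −0.02 in D4, −0.22 in G4, 0.01 in G10 and 0.11 in H3, beside −0.06, −0.04, 0.00 and 0.01 for all genes. These 4 comparisons share the same control libraries. With INPPL1 included, and in either direction, 5 of the 9 tested members passed over the clones (40.2% of all genes), 5 in D4 (41.2%), 3 in G4 (27.3%), 4 in G10 (37%) and 5 in H3 (46%). With size factors the genes called in G4 were 2529 higher and 2360 lower, in place of 1922 and 2905. In D4 they were 3648 and 3513, in place of 3090 and 4196, and over the clones 3543 and 3470, in place of 3215 and 3890. The higher genes were SYNJ2 and INPP5J in each case, without INPP5J in G4. For the other 6 relatives the upper end of the 95% interval lay under a 1.5-fold rise in each clone, on the log2(CPM + 1) scale. These intervals cover the spread between libraries and not that between clones.

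**Figure D3:**
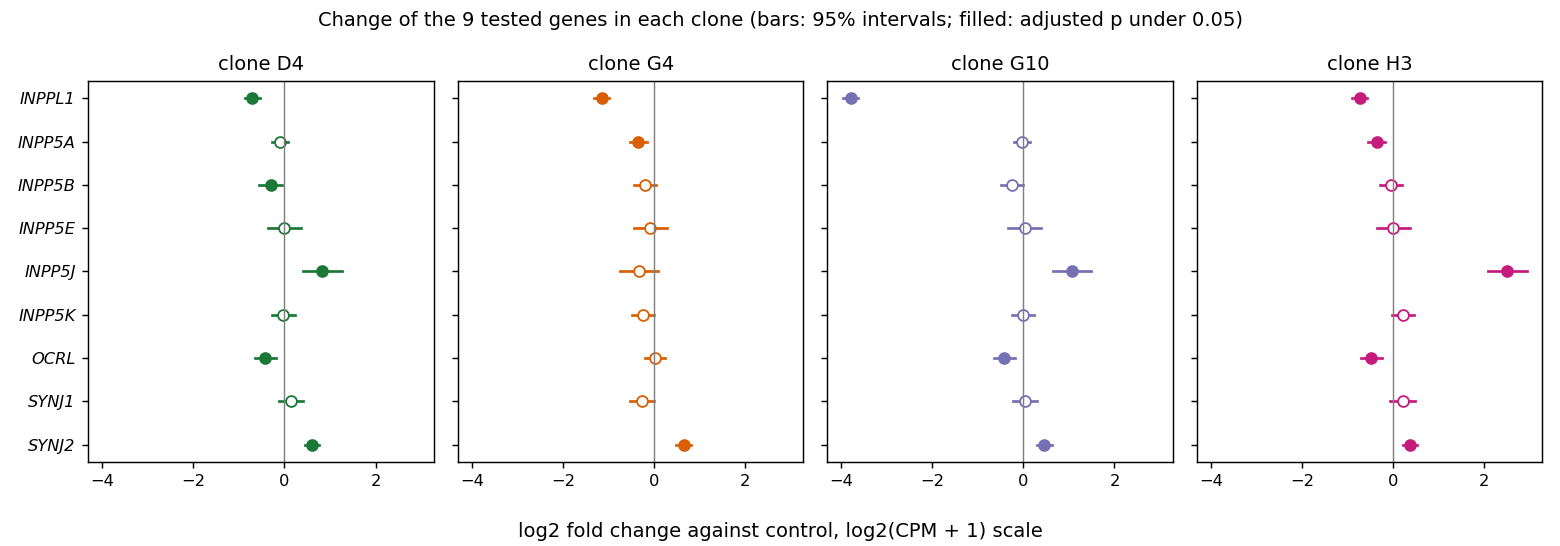
Log2 fold change against the control (x axis, log2(CPM + 1) scale) of the 9 tested genes in the 4 clones, 1 panel a clone. Bars are 95% intervals and filled points have an adjusted p under 0.05. SYNJ2 lies above 0 in each panel and INPP5J in 3 of 4, while OCRL lies below 0 in D4, G10 and H3.

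The synaptojanins join a 5-phosphatase to a SAC phosphatase domain and act on PI(4,5)P2 at sites of endocytosis. SYNJ2 (ENSG00000078269, chromosome 6) stood at 59.1 and 53.7 CPM in the control and at 73.1 to 89.8 CPM in the 8 edited libraries, which all lay above the control. The means were 86.4 ± 3.87 CPM in D4, 89.0 ± 1.09 in G4, 77.9 ± 1.41 in G10 and 73.1 ± 0.04 in H3 (SD, n = 2). Of all genes tested, 7.66% had every edited library above both control libraries. The log2 change was 0.52 ± 0.06 over the clones (SE, adjusted p = 4.09e-06, limma), and 2.81% of the genes tested likewise passed as higher in each of the 4 clones. It ranged from 0.37 in H3 to 0.65 in G4, with 0.46 in G10. A relation of this change to the amount of SHIP2 lost was not tested.

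The 50 genes nearest to SYNJ2, from 149594873 to 166383013 of chromosome 6, rose with it. Their median log2 change was 0.48 in D4, 0.33 in G4, 0.46 in G10 and 0.39 in H3. SYNJ2 lay inside the quartiles of these genes in D4, G10 and H3 and above them in G4 (0.20 to 0.50). Of the 50, 15 had a larger mean change than SYNJ2. The closest of them were chosen for display after the values were seen. ZDHHC14 and SNX9 on the lower side changed by 0.61 and 0.51 over the clones, and SERAC1 and GTF2H5 on the other by 0.48 and 0.62. With the window medians subtracted, the rise of SYNJ2 over the clones no longer passed (0.11 ± 0.06, adjusted p = 0.206, limma). It was then 0.00 in G10 and −0.02 in H3, and passed only in G4 (0.32, adjusted p = 0.0091).

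SYNJ1 (ENSG00000159082, chromosome 21) did not pass in any clone. The control libraries differed from each other, at 22.2 and 17.5 CPM, and the edited libraries spanned 15.8 to 23.3 CPM with a median of 21.8. Its log2 change over the clones was 0.03 (95% interval −0.18 to 0.24, adjusted p = 0.834, limma). The median of its neighbours was 0.29 in D4, 0.28 in G10 and 0.31 in H3 but −0.06 in G4. In G4 SYNJ1 stood at −0.27 (adjusted p = 0.132), and it passed there without control replicate 2 (−0.43, adjusted p = 0.0482, limma).

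INPP5J, also named PIPP, is a proline-rich 5-phosphatase of PI(4,5)P2 and PI(3,4,5)P3. INPP5J (ENSG00000185133, chromosome 22) was at 0.899 and 1.1 CPM in the control, resting on 24 estimated reads. H3 stood at 9.69 and 11.1 CPM, G10 at 2.5 and 4.0 CPM and D4 at 2.5 and 2.6 CPM. G4, at 0.4 and 0.8 CPM, lay below both control libraries, so 6 of the 8 edited libraries were higher and 2 were lower. The mean in H3 was 10.4 times that of the control. On the log2(CPM + 1) scale, which understates the change of a gene this low, the difference was 2.51 ± 0.20 in H3 (SE, adjusted p = 7.16e-08, limma), 1.07 in G10, 0.83 in D4 and −0.33 in G4 (adjusted p = 0.244). Because INPP5J passed the filter largely through the clones where it is high, its count among the tested relatives is not independent of its rise. The neighbours on chromosome 22 were level on the median, which lay between −0.04 and −0.01 in the 4 clones, and 0 of the 50 had a larger mean change. These neighbours average 5 CPM or more, which INPP5J does not. Of the closest genes, shown after their values were seen, SMTN and AC004542.1 on the lower side changed by 0.49 and 0.22 over the clones. RNF185 and RNF185-AS1 on the other changed by −0.11 each. SMTN alone changed by 0.57 in D4, 0.54 in G10, 0.67 in H3 and 0.18 in G4. Per length, INPP5J reached 2.16 ± 0.21 CPM per kb in H3, against 13.3 ± 0.30 for INPPL1 in the same libraries.

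The summed level of 5 fibroblast markers was highest in H3, as INPP5J was, at 130.8 to 135.8 CPM. It was 61.1 to 67.4 CPM in D4, 41.1 to 41.2 in G10 and 11.7 to 13.7 in G4, against 15.8 to 19.8 CPM in the control. INPP5J was instead higher on the mean in G10 (3.25 CPM) than in D4 (2.55 CPM). LUM, with a control mean of 4.52 CPM, ranged from 4.5 to 119.1 CPM and was the only 1 of the 5 above 16.5 CPM. COL1A1 ranged from 6.55 to 16.5 CPM, with a control mean of 13.0 CPM. PDGFRB reached at most 0.6 CPM and COL1A2 0.2 CPM, while DCN was at 0 in 8 of 10 libraries. The sum of 3 endothelial markers was 0.85 to 0.899 CPM in the control and 1.1 to 3.15 CPM in the clones, and CDH5 was at 0 in both control libraries. Their part in the result was not tested.

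INPP5D encodes SHIP1, the blood cell counterpart of SHIP2, with the same arrangement of an SH2 and a phosphatase domain. INPP5D (ENSG00000168918, chromosome 2) was at 0 to 0.3 CPM in the control and at 0 to 0.55 CPM in the edited libraries, and it was not tested. No library held more than 7 estimated reads of it. It was 0 in control replicate 2 and G4 replicate 2, where a count of 0 leaves room for 3 reads, or 0.229 and 0.295 CPM. The leukocyte gene PTPRC was at 0 in 7 libraries and reached at most 0.2 CPM. SPI1 was at 0 in 8 libraries, CD3E in 9, LYZ in 7 and CD79A in 4. The summed leukocyte list was 38.2 to 39.0 CPM in the control and 5.85 to 38.7 CPM in the clones, nearly all of it CD68 (5.85 to 38.6 CPM).

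OCRL, the gene of Lowe syndrome, and its paralog INPP5B act on PI(4,5)P2 at endosomes and the Golgi. OCRL (ENSG00000122126, X chromosome) was at 64.4 and 65.4 CPM in the control. H3 was at 43.3 and 49.8 CPM, G10 at 54.3 and 43.0 CPM and D4 at 50.4 and 46.3 CPM, but G4 was at 62.9 and 69.6 CPM. The 6 libraries of D4, G10 and H3 lay below both control libraries and those of G4 lay on either side. The log2 change was −0.42 ± 0.11 in D4 (adjusted p = 0.00487), −0.42 in G10 (adjusted p = 0.00563), −0.47 in H3 (adjusted p = 0.00172) and 0.03 in G4 (adjusted p = 0.881, all limma). The call in D4 was lost without D4 replicate 2 (adjusted p = 0.0516) and that in G10 without G10 replicate 2 (adjusted p = 0.0815). The call over the 4 clones (−0.32, adjusted p = 0.00633) was lost without either control library (adjusted p = 0.0525 and 0.0673).

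The neighbours of OCRL rose on the median in each clone. The 50 nearest genes, from 119588337 to 139222777 of the X chromosome, had medians of 0.29 in D4, 0.20 in G4, 0.39 in G10 and 0.33 in H3. OCRL lay below their lower quartile in each clone, and 49 of the 50 had a higher mean change. With the window medians subtracted, OCRL stood at −0.71 in D4, −0.80 in G10, −0.80 in H3 and −0.18 in G4, and at −0.62 ± 0.09 over the clones (SE, adjusted p = 4.24e-05, limma). The closest genes are shown after their values were seen. TENM1 and SMARCA1 on the lower side changed by 0.35 and 0.25 over the clones, and ZDHHC9 and UTP14A on the other by 0.42 and 0.095. In single clones, their values below 0 were those of SMARCA1 in G10 (−0.28) and UTP14A in D4 (−0.09).

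INPP5B (ENSG00000204084, chromosome 1) was at 15.9 and 17.6 CPM in the control and at 12.8 to 16.6 CPM in the edited libraries, 7 of which lay below both control libraries. It passed in D4 alone of the 4 clones (−0.30, adjusted p = 0.0492, limma), a call that was lost without any 1 library of the control, D4, G4 or H3. Over the clones it was −0.20 (adjusted p = 0.102). An antisense gene, AL929472.2, overlaps it by 884 bases and stood at 1.85 CPM in the control, and without the strand setting reads of the overlap cannot be assigned.

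**Figure D4:**
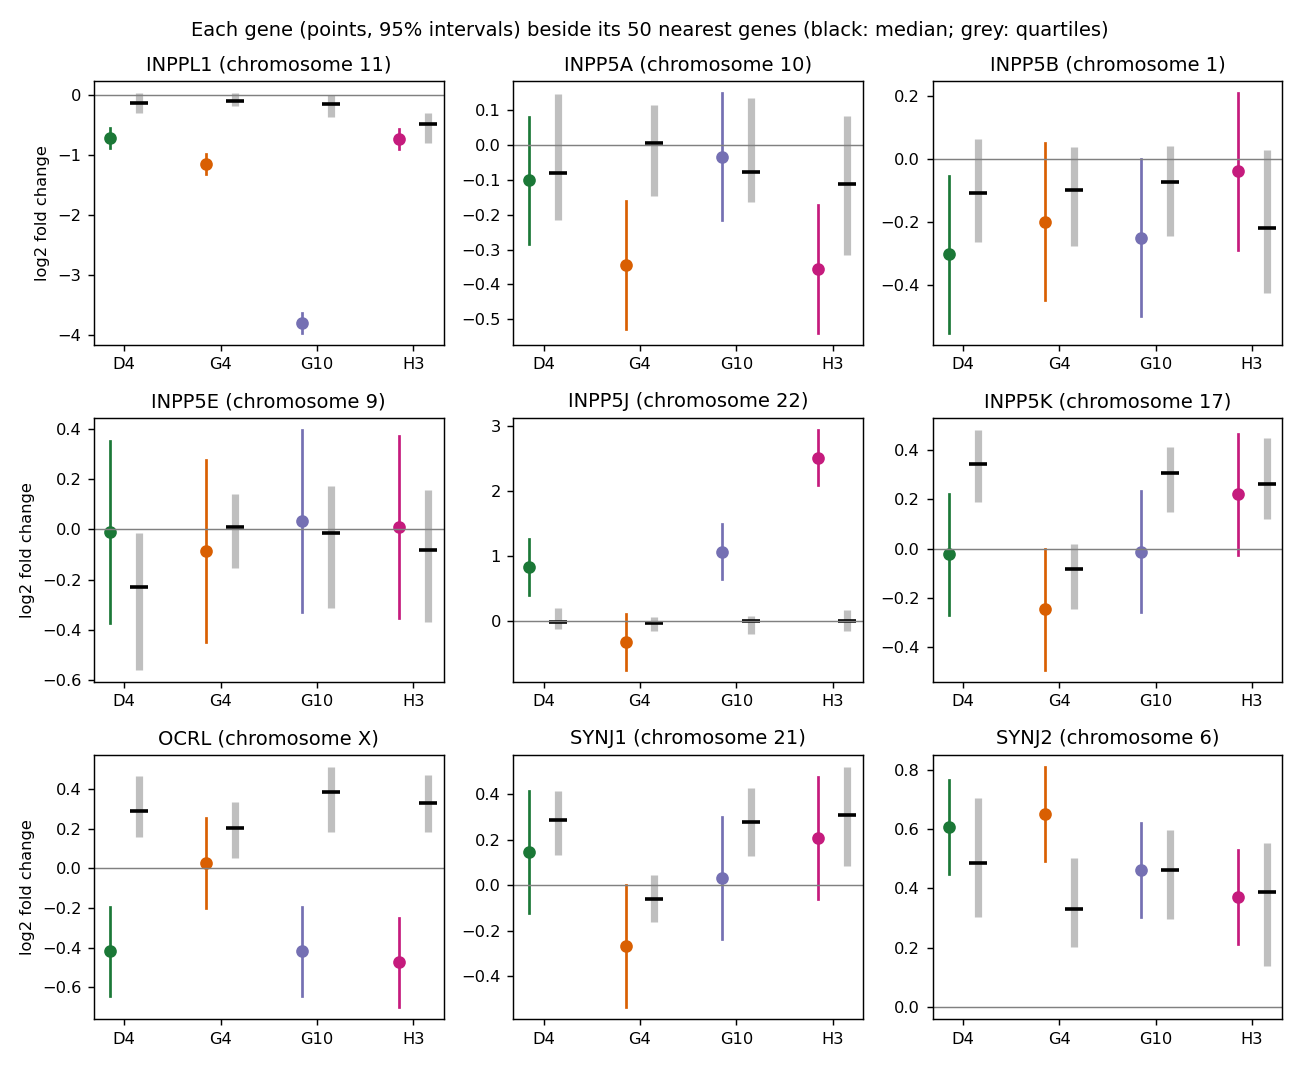
Log2 fold change against the control (y axis, own scale per panel) of the 9 tested genes in the 4 clones (x axis). Coloured points are the gene with its 95% interval, black marks are the median of its 50 nearest genes and grey bars their quartiles. SYNJ2 runs with its neighbours except in G4, where it lies above their quartiles. OCRL lies below neighbours that rose on the median. INPP5J rises in D4, G10 and H3, but not in G4, with neighbours near 0 on the median.

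INPP5A removes the 5-phosphate of soluble IP3, and so ends its calcium signal. INPP5A (ENSG00000068383, chromosome 10) was at 46.0 and 47.7 CPM in the control and lower in G4 (38.2 and 35.2 CPM) and H3 (37.2 and 35.6 CPM). In D4 it was at 46.0 and 41.3 CPM and in G10 at 45.7 CPM in both libraries, close to the control. The log2 change was −0.34 in G4 (adjusted p = 0.00737) and −0.36 in H3 (adjusted p = 0.00303), and did not pass in D4 (−0.10, adjusted p = 0.372) or G10 (−0.03, adjusted p = 0.789, all limma). The call in G4 was lost without control replicate 2 (adjusted p = 0.0589) or G4 replicate 2 (adjusted p = 0.0841). The call over the clones (−0.21, adjusted p = 0.0225) was lost without either control library, without G4 or H3 and with window medians subtracted. NKX6-2, which overlaps INPP5A by 302 bases on the other strand, was at 6.02 CPM in the control.

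INPP5E works at the primary cilium and INPP5K, also named SKIP, at the endoplasmic reticulum and ruffling membrane. INPP5E (ENSG00000148384, chromosome 9) was at 32.0 and 38.2 CPM in the control and at 30.3 to 42.2 CPM in the edited libraries, with G10 holding both the lowest and the highest. Its log2 change over the clones was −0.01 (95% interval −0.30 to 0.27, adjusted p = 0.946, limma). INPP5K (ENSG00000132376, chromosome 17) was at 12.6 and 13.1 CPM in the control, 12.6 in both libraries of D4, 12.7 in both of G10, 10.5 and 10.8 in G4 and 16.1 and 14.1 CPM in H3. Against the control it did not pass in any clone, with log2 changes of −0.25 in G4 and 0.22 in H3 as the extremes. Neighbours of INPP5K on chromosome 17 had medians of 0.34, 0.31 and 0.26 in D4, G10 and H3, and with these subtracted INPP5K was lower in D4 (−0.37, adjusted p = 0.0276, limma).

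Compared directly with each other, the clones differed in 7 of the 9 tested members (limma F test over the 4 clones), beside 67.3% of all genes. Against the mean of the other 3 clones, G4 differed in 7 members, where 42.8% of all genes passed (19.1% higher, 23.7% lower). OCRL (0.46) and SYNJ2 (0.17) were higher in G4, and INPP5J (−1.80), SYNJ1 (−0.40), INPP5K (−0.31) and INPP5A (−0.18) were lower. INPPL1 in G4 was also above the log mean of the others (0.60), which holds G10 at 9.493 CPM, although it was below D4 and H3. H3 differed in 5 members (43.6% of all genes, 26.1% higher and 17.5% lower), with INPP5J (1.99), INPPL1 (1.15, again against a mean that holds G10) and INPP5K (0.31) higher and SYNJ2 (−0.20) and INPP5A (−0.20) lower. In D4 only INPPL1 differed (1.19), beside 33.5% of all genes, 14.3% higher and 19.1% lower. In G10, where INPPL1 was lower than in the other clones by a log2 difference of −2.93, INPP5A was the 1 relative to pass (0.23 ± 0.07, SE, adjusted p = 0.0181, limma). Of all genes 33.2% passed in G10, 17.7% higher and 15.4% lower. SYNJ2 in G10 stood at −0.08 (95% interval −0.21 to 0.05) and INPP5J at 0.06 (−0.29 to 0.41) against the other clones.

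Other enzymes of phosphoinositides and inositol phosphates were counted over lists chosen by function. Of 62 tested genes in 5 lists, 8 were higher and 9 lower over the clones, with a median of −0.05, beside 18.2% and 22% of all genes and their median of −0.02. The balance differed by clone, with 17 higher and 11 lower in H3, 11 and 17 in D4, 7 and 17 in G10 and 4 and 14 in G4, against the all-gene shares given above for each clone. The counts of single lists below are over the clones unless a clone is named. Among 10 kinases that build PI(4,5)P2 and related lipids 2 rose and 2 fell. In single clones, 2 of these kinases were higher and 5 lower in G10, 0 and 2 in G4, 1 and 1 in D4, and 3 and 3 in H3. PI4KB, a maker of PI4P at the Golgi, fell in each clone (−0.32 ± 0.06, adjusted p = 0.000332), and PIP5K1A, a maker of PI(4,5)P2, fell over the clones (−0.32, adjusted p = 0.000564). PIP5K1A passed in each clone but D4 (−0.09), with −0.30 in G4, −0.22 in G10 and −0.66 in H3. PIP5K1C (0.46, adjusted p = 0.0488) and PI4K2B (0.43, adjusted p = 0.00227, all limma) rose over the clones. PIP5K1C passed only in G10 and H3, and PI4K2B only in D4 and G10. Of 7 genes of 4-phosphatases and other SAC phosphatases 2 rose and 0 fell, while 2 were lower in G4 and 1 in H3. FIG4, a phosphatase of PI(3,5)P2, rose by 0.32 over the clones, beside a mean window median of 0.21. It passed only in H3 (1.05). INPP4A, which removes the 4-phosphate from PI(3,4)P2, the lipid that SHIP2 makes, rose by 0.30 over the clones (adjusted p = 0.00236), with 0.73 in H3, 0.39 in D4, −0.04 in G10 and 0.12 in G4. The mean window median of INPP4A was 0.19. Of 15 genes of 3-phosphatases and myotubularins 0 rose and 1 fell, MTMR14 (−0.19, with its window at −0.16). By clone, 2 of these 15 were higher and 5 lower in D4, 2 and 2 in H3, 1 and 2 in G10, and 0 and 3 in G4.

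Phospholipases C and IP3 receptors, which make and sense the substrate of INPP5A, rose in 1 and fell in 3 of 15. By clone, 5 were higher and 3 lower in H3, but 2 and 8 in D4, 1 and 5 in G10, and 1 and 4 in G4. PLCB4 was at 0.725 CPM in the control, and its mean was highest in D4 (5.55 CPM), then G10 (3.8 CPM) and H3 (2.42 CPM). It rose over the clones (1.17, adjusted p = 2.47e-05, limma) but did not pass in G4 (0.28). Like INPP5J, PLCB4 passed the filter largely through the clones where it is high. Its place among the tested genes that rose is therefore not independent of its rise. PLCD3 fell in each clone, from 152.2 CPM to between 63.7 CPM in G10 and 121.3 CPM in G4 (−0.78 ± 0.07). The receptor gene ITPR3 had a control mean of 448.1 CPM and fell in H3, D4 and G10, where the means lay between 260.3 and 283.7 CPM. G4 stood at 527.6 CPM, where it passed as higher (0.24, adjusted p = 0.0163, limma). PLCH2, with 3.35 CPM in the control, fell in H3, D4 and G10 to means of 0.475 to 0.899 CPM and stood at 3.8 CPM in G4. PLCH2 passed the filter largely through the control and G4, so its count as lower is not independent of its fall. Among 15 enzymes of inositol phosphates 3 rose and 3 fell. In single clones, 5 of these enzymes were higher and 2 lower in H3, 2 and 5 in G10, 4 and 3 in D4, and 2 and 3 in G4. ISYNA1, which makes inositol phosphate from glucose 6-phosphate, rose (0.97), with 7.99 CPM in the control, 8.52 CPM in G4 and means between 19.6 and 22.4 CPM in the other clones. IMPA1, which frees inositol, rose over the clones (0.33, with its window at 0.25). It passed only in G4 and H3 and stood at −0.16 in D4. ITPKC, a kinase that converts IP3, fell (−0.48, with its window at −0.27) and passed in each clone but H3. PPIP5K2 fell (−0.28, with its window at −0.11) and passed only in D4 and G10. The windows of the other named genes of these lists lay between −0.10 and 0.19.

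The genes whose levels ran most like that of INPPL1 were sought over the 10 libraries among the 12756 tested genes averaging 5 CPM or more. The 10 libraries hold 5 groups and G10 sets most of the ranking, so the correlations are a description. The repair gene ERCC6 was closest (r = 0.97), at 33.6 CPM in the control and 16.6 CPM in G10. CSTF2T, AC019349.1, FAM212B and TRIM16L followed (r = 0.96 each). AC019349.1 went from 40.0 CPM to 4.62 CPM in G10 but was at 43.8 CPM in H3. The splicing factor SRSF1 ran most opposite (r = −0.98), at 311.8 CPM in the control and 413.1 CPM in G10, followed by PCGF3 and EEF1B2 (−0.96 each), RPL9 (−0.96) and TIMM10 (−0.95). The 7 relatives that were ranked, without INPP5J and INPP5D, lay inside these ends, from −0.35 for SYNJ2 to 0.47 for INPP5B, and 25.2% of the ranked genes had a lower r than SYNJ2.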

How the data were processed

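Total RNA of 10 samples was sequenced as Ovation Solo libraries, per the labels. The deposited values were CPM per the file headers, 1 column a library, and 0 value columns were left unused. STAR 2.5.3a, HTSeq and hg38 are named in the submitters' processing notes, and the strand setting and annotation are not given in the sources used here. Reads were estimated by undoing a scaling to a common total, which reproduced 99.8% to 99.9% of values above 0 exactly. Positions and exon lengths came from GENCODE release 29, matched by Ensembl identifier for 58039 of 58302 genes.

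limma 3.58.1 (trend, robust, R 4.3.3) was run on log2(CPM + 1) over the 17664 genes that reached 1 CPM in 2 or more libraries, with 1 coefficient a group and Benjamini-Hochberg adjustment at 0.05 over all of them. Windows were the 50 nearest genes on the chromosome with a mean of at least 5 CPM. Their medians were subtracted as fixed values, so p values after subtraction do not cover the spread among these genes. Floors and intervals of reads cover counting error only.

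The members and gene lists were chosen with earlier results of these data known. All 10 members were named, then up to 4 passing genes of each list with the largest change over the clones, and the 5 genes at each end of the correlation with INPPL1. The alternatives were size factors, filters, pseudocount 0.1, limma-voom on estimated reads, a replicate block, window medians subtracted, clone means, and each library or clone left out. Python 3.11.15, numpy 2.4.6, pandas 2.3.3 and matplotlib 3.10.9 were used.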

Additional observations from a re-analysis of the deposited data

Results flagged for a closer look

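The change against the control differed between the 4 clones, by the F test among them, for 7 members: INPPL1 (adjusted p = 1.46e-13, limma), INPP5J (9.34e-08), OCRL (0.00192), INPP5A (0.00558), SYNJ2 (0.0112), SYNJ1 (0.015) and INPP5K (0.0166). INPP5E (0.899) and INPP5B (0.211) did not pass.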

How the results depend on the processing

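The log2 change of INPPL1 kept its sign and stayed past the threshold in each clone under each alternative run, from −3.93 to −3.65 in G10 and from −0.78 to −0.25 in H3. Over the clones it lost its call with clone means as replicates (−1.60, adjusted p = 0.98), a fit that called 0 of all genes (693 at an unadjusted p under 0.05, limma). There the relatives called higher and lower were 0 and 0. With a minimum mean of 5 CPM, which removes INPP5J, 1 relative was called higher over the clones and 1 in each of H3, G10 and D4. After subtraction of window medians the same counts were 1 and 1, and 1 was lower over the clones. The relatives called lower over the clones were also 1 with no filter, without clone G4 and without clone H3. In D4 they were 1 with size factors, with no filter and with limma-voom. D4 differed from the other clones in 2 members with size factors.

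With 1 library left out, the relatives called lower were 0 to 2 over the clones and in D4, and 0 to 1 in G4 and G10. Those called higher kept their counts. Members differing among the clones were 4 to 7. Members differing from the other clones were 3 to 6 in G4, 1 to 2 in G10 and 2 to 7 in H3. Leaving out 1 control library moved the genes called over the clones from 7105 to 4541 or 4674. In G4 the count of 4827 became 3065 without control replicate 1, and 2859 and 3082 without G4 replicate 1 and 2.

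Signs turned only for values near 0 or after subtraction. INPP5E turned over the clones with size factors (0.0126), window medians (0.0650) and without G4 (0.0111), in D4 with size factors (0.0523) and window medians (0.22), and in H3 with size factors (−0.0026) and limma-voom (−0.0024). INPP5K turned over the clones with size factors (0.00890) and without G4 (0.0609), in D4 with size factors (0.0345), and in H3 with window medians (−0.0427). SYNJ1 turned with window medians over the clones (−0.17), in D4 (−0.14), G10 (−0.24) and H3 (−0.10), and without D4 (−0.00781) or H3 (−0.0290). Window medians also turned INPP5A in G10 (0.0426), INPP5B in H3 (0.18), OCRL in G4 (−0.18) and SYNJ2 in H3 (−0.0160). With 1 library left out, the ranges that cross 0 were −0.14 to 0.11 for INPP5E over the clones, −0.13 to 0.12 in D4, −0.20 to 0.27 in G10, −0.21 to 0.0377 in G4 and −0.16 to 0.18 in H3. They were −0.13 to 0.19 for SYNJ1 over the clones, −0.0166 to 0.31 in D4 and −0.13 to 0.20 in G10. They were −0.0419 to 0.0102 for INPP5K over the clones, −0.0494 to 0.00265 in D4 and −0.0389 to 0.0131 in G10, −0.0442 to 0.10 for OCRL in G4, and −0.11 to 0.0290 for INPP5B in H3. The cause was not tested.

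With the replicate number as a block INPPL1 stood at −1.60 over the clones, and the genes called went from 7105 to 7696. Differences between replicate 1 and 2 correlated at 0.21 to 0.41 in the 6 pairs of groups among the control, D4, G4 and G10, and at −0.24 to −0.08 in the 4 pairs with H3. Libraries of the same number thus deviated together in 4 groups and not in H3, and the labels give no shared source, so the numbers were not taken as pairs. The block used the numbers as labelled. The block changed no call of a member. With 2 libraries a group and 24 reads of INPP5J in the control, depth limits the lowest members.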
